A study of Mus musculus with 12 samples.

Results

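The response of mouse bone-marrow-derived macrophages to lipopolysaccharide (LPS) alone was described from 6 of the 12 libraries of the series, 3 with LPS (1 ng/ml, 3 h) and 3 untreated controls. All 6 came from wild-type (WT) cells, bone marrow cells grown for 7 days in RPMI with 10% serum and the growth factor M-CSF. Strain, sex, age and any vehicle are not given in the sources used here, nor is it said whether the 3 replicates of a group come from different mice or culture dishes, so p-values measure only how far these libraries spread. The other 6 libraries received tunicamycin (5 ug/ml), an inhibitor of protein glycosylation, without or followed 3 h later by LPS. They enter here through the shared estimate of spread and the filter for genes tested. They also enter the comparison of LPS effects with and without tunicamycin near the end. Of 24346 genes in the table, 10311 had an FPKM (fragments per kilobase of transcript, scaled to the mapped fragments of the library) of at least 1 in at least 3 of the 12 libraries and were tested.

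LPS is a cell wall component of Gram-negative bacteria. Macrophages bind it through CD14 and the TLR4 and MD-2 receptor complex, which signals through the adaptor MyD88 at the cell surface and through TRIF from endosomes. The first route leads to the transcription factor NF-kB and to MAP kinases, the second also to IRF3 and interferon beta, which then acts back on the cells through its own receptor. NF-kB is held in the cytoplasm by IkB proteins, and many of its targets encode inhibitors that close the pathway again.

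Markers of macrophages were present throughout, with a summed level over 10 markers of 18961 to 23993 FPKM in the LPS libraries and 14696 to 19338 FPKM in the control libraries. Of these 10, Cd14 rose, 2 fell (Mertk among them), and 7 did not pass, among them Csf1r, Cd68 and C1qa. Markers of T, B, mast, erythroid and endothelial cells were low, each list summing to at most 3.12 FPKM in any of the 6 libraries. Cd3e, Cpa3, Hba-a1 and Cdh5 were listed at 0 in all 6. The B cell marker Cd79b reached 3.12 FPKM and the endothelial marker Kdr 1.99 FPKM, both in control replicate 2. Cd4 reached 1.45 FPKM in LPS replicate 2. Cd79b and Cd4 were tested and did not pass. The 6 stromal markers summed to 19.9 to 25.7 FPKM with LPS and 16 to 25.4 FPKM without, most of it Acta2, and none of the 5 tested passed. Of 5 neutrophil markers tested, 3 rose (S100a9, Ngp and Ltf), and the 7 neutrophil markers in the table summed to 190 to 316 FPKM with LPS and 86.7 to 126 FPKM without. Of 2 dendritic cell markers tested 1 rose (Xcr1), and that list summed to 3.60 to 6.87 FPKM with LPS and 1.51 to 4.94 FPKM without, with Clec9a at 0. Across genes, 2 libraries of a group correlated at r = 0.9753 to 0.9844, and an LPS with a control library at 0.9190 to 0.9412. Control replicate 2 lay apart from the other controls on the second principal component (10.5% of variance). Without it 1617 genes passed (978 higher with LPS, 639 lower), against 1894 with all libraries.

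The response was wider in size upward than downward. Of the 10311 genes, 18.4% passed limma's test at a Benjamini-Hochberg adjusted p under 0.05, 10.5% higher with LPS (1084 genes) and 7.86% lower (810 genes). Of all genes tested, 5.22% passed at least 2-fold higher (538) and 3.1% at least 2-fold lower (320). At 4-fold or more there were 204 rises and 32 falls, at 8-fold or more 96 and 4, and at 32-fold or more 21 rises and 0 falls. The median fold of the genes that passed was nevertheless close in both directions, 1.99 for the rises and 1.86 for the falls. Genes that rose had a median control level of 10.3 FPKM and genes that fell 12.5 FPKM, against 10.2 FPKM for all genes tested. In 156 of the rises the control mean was under 1 FPKM, and in 104 of the falls the LPS mean was. Fold changes here and below are differences of log2(FPKM + 1), LPS minus control, given ± SE, and they understate the change of genes at low levels. Levels are mean ± SD over 3 libraries. With quantile normalization, which shifted the median of all genes by -0.07, 923 genes passed higher and 1001 lower, while median-of-ratios scaling gave 1081 higher and 819 lower. In bulk RNA, fewer cells of a kind and less RNA per cell cannot be told apart.

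**Figure D1:**
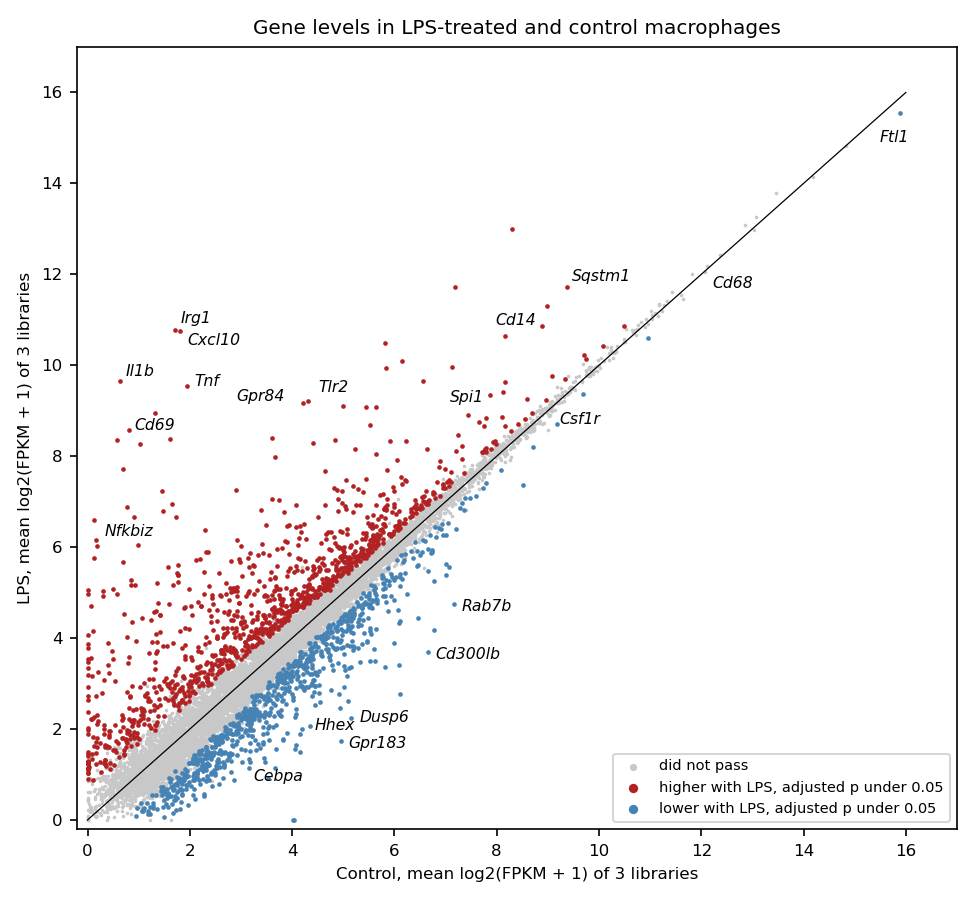
Mean log2(FPKM + 1) of the 3 LPS libraries (vertical axis) against that of the 3 control libraries (horizontal axis) for the 10311 genes tested, with the line of equal level. Genes that passed higher with LPS (red, 1084) reach far above the line at low control levels, while genes that passed lower (blue, 810) lie in a narrower band under it.

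Many of the deep falls were in genes of signalling. Gpr183, the receptor for oxysterols that guides immune cell positioning (mm10 chr14:121952551-121965195, minus strand), had 2.92, 2.71 and 1.53 FPKM in the LPS libraries, against 27.2, 30.7 and 32 FPKM in the control libraries (log2 -3.22 ± 0.28). Cd300lb, an activating receptor of the CD300 family, had 15.4, 10.2 and 10.6 FPKM with LPS, against 102, 92.9 and 105 FPKM without (log2 -2.97 ± 0.19). The groups did not overlap for either gene; over all genes tested, 33.7% had groups that did not overlap. The other large falls included the lysophosphatidic acid receptor Lpar6 (-2.66), the cannabinoid receptor Cnr2 (-2.60), the ERK phosphatase Dusp7 (-2.51), the G protein alpha subunit Gna12 (-2.48), the small GTPase Rap2a (-2.46), the ubiquitin ligase adaptor Klhl6 (-2.46), the signalling adaptor Bcar3 (-2.43) and Lhfpl2 (-2.68), all as log2 changes. Mir8112 was listed at 0 in all LPS libraries, but 95.4% of its bases lie within exons of Krcc1 on the same strand, so its value is uncertain.

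Among the rises, Cd69, a lectin of early activation (chr6:129267325-129275436, minus strand), had 301, 511 and 354 FPKM in the LPS libraries, against 0.225, 0.778 and 1.46 FPKM in the control libraries. That is a log2 change of 7.76 ± 0.24, the largest among the surface receptor genes named here. Marcksl1, a regulator of the actin cortex, had 340 ± 39.1 FPKM with LPS and 11.4 ± 2.79 FPKM in control cells (log2 4.80 ± 0.18). Tnfaip2, a TNF-induced gene, had 1447 ± 134 FPKM with LPS and 55.6 ± 7.33 FPKM in control cells. Among the 10 largest rises in FPKM were those of chemokine genes and of the autophagy receptor gene Sqstm1. Ccl4 had 8239 ± 704 FPKM with LPS and 317 ± 38.3 FPKM in control cells. Ccl3 had 3399 ± 181 FPKM with LPS and 144 ± 5.58 FPKM in control cells. Ccl7 had 2540 ± 455 FPKM with LPS and 509 ± 91.4 FPKM in control cells, and Ccl2 had 1877 ± 268 FPKM with LPS and 479 ± 115 FPKM in control cells. Sqstm1 had 3365 ± 386 FPKM with LPS and 661 ± 9.18 FPKM in control cells. Of the exon bases of Sqstm1, 20.5% lie opposite another gene whose level was near 5 FPKM in both groups.

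The promoters of several genes named in the text hold the letters that NF-kB, interferon-activated factors or E2F proteins are known to bind. As examples, 6 that hold matches are shown. Other genes named below lack them, such as Ifit2, whose window had no interferon-stimulated match. Any part of the letters in the response was not tested. Each is the 250 bases before the RefSeq transcription start (GRCm38.p6, which is mm10), 5′ to 3′ on the gene's strand, with capitals only for the matches to the letters it is shown for; matches to other letters searched are not marked. The first pair shows NF-kB letters (GGGNNTTTC or GGGNNTTCC) before an inhibitor and a subunit of NF-kB, at chr12:55492648-55492897 and chr11:23770970-23771219, both minus strand. Rel was chosen after its values were seen.
Nfkbia: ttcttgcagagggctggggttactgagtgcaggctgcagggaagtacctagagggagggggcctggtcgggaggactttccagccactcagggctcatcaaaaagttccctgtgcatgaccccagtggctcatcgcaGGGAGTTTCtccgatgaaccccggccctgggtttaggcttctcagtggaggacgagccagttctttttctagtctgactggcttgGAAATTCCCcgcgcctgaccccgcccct
Rel: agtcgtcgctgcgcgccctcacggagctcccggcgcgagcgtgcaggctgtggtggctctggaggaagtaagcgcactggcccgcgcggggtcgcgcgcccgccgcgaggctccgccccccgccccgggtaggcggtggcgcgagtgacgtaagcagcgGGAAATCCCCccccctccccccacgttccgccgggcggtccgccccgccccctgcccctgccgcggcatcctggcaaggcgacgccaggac
The next 3 show interferon-stimulated response element letters (GAAANNGAA), in Cxcl10 with an NF-kB match as well, at chr5:92348890-92349139 (minus strand), chr19:34640639-34640888 (plus strand) and chr11:48871421-48871670 (minus strand). Irgm1 was also chosen after its values were seen.
Cxcl10: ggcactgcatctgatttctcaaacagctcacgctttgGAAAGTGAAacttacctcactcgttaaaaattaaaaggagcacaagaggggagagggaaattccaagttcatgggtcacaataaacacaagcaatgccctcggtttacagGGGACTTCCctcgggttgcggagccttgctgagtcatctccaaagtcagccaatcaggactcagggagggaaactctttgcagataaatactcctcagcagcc
Ifit1: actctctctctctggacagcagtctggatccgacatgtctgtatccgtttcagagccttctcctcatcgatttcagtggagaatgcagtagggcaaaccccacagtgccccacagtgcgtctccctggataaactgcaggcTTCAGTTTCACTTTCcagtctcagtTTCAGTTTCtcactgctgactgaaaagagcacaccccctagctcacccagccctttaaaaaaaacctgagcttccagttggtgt
Irgm1: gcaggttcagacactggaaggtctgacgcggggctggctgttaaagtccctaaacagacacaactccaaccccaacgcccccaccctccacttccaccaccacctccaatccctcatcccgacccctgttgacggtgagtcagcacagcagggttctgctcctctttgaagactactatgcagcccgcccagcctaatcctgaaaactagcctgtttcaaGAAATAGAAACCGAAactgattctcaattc
The last shows E2F letters (TTTCCCGC or TTTGGCGC) before a replication licensing gene, at chr11:98907901-98908150 (plus strand).
Cdc6: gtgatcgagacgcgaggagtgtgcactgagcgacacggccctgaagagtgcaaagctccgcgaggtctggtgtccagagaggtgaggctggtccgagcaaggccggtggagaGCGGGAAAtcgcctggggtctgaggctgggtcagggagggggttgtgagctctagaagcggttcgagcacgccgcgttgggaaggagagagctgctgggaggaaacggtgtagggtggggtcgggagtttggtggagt
Both strands were searched, in windows of 250 bases before to 50 after the start, and matches can overlap, as in Rel, Ifit1 and Irgm1, also between different letters.

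RefSeq windows were found for 8369 of the 10311 genes tested. The NF-kB letters were in 22.7% of genes at least 8-fold higher with LPS (17 of 75), in 7.6% of genes at least 2-fold lower (20 of 263) and in 11.3% of all windows. The interferon-stimulated letters were in 28% of genes at least 8-fold higher (21 of 75), in 4.56% of genes at least 2-fold lower and in 7.47% of all windows. AP-1 letters (TGANTCA) were in 13.3% of genes at least 8-fold higher and in 4.91% of all windows. E2F letters were in 2.67% of genes at least 8-fold higher (2 of 75), in 6.08% of genes at least 2-fold lower (16 of 263) and in 3.36% of all windows. The first search used longer NF-kB letters, with a further C at the 3′ end, and longer interferon-stimulated letters, with a further A. The shorter letters were adopted after the shares of that search had been seen, and the shares depend on the length. With the longer letters, NF-kB matches were in 16% of genes at least 8-fold higher (12 of 75), 2.28% of genes at least 2-fold lower and 3.69% of all windows, and interferon-stimulated matches in 22.7% (17 of 75), 1.52% and 3.26% of the same groups. These shares describe letters in windows and were not tested.

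Among the Toll-like receptors and the LPS receptor complex, 5 of 15 tested members rose, 2 fell and 8 did not pass. Tlr2, which senses bacterial lipoproteins (chr3:83836272-83841767, minus strand), had 621, 588 and 580 FPKM in the LPS libraries, against 21.8, 20.8 and 15 FPKM in the control libraries. This was the largest change of the list (log2 4.90 ± 0.12, adjusted p = 6.93e-15), and every LPS library lay far above every control library. Its partners Tlr1 (17.8 ± 0.614 FPKM with LPS and 5.39 ± 1.6 FPKM in control cells) and Tlr6 (12.5 ± 1.88 FPKM with LPS and 5.13 ± 0.610 FPKM in control cells) rose less, by 1.59 and 1.13 on the log2 scale. The falls were Tlr4 itself (chr4:66827584-66930284, plus strand), with 5.19, 6.14 and 6.49 FPKM in the LPS libraries, against 22, 23.6 and 20.3 FPKM in the control libraries, and Tlr13, an endosomal sensor of bacterial ribosomal RNA. Tlr13 had 43.2, 52.1 and 45 FPKM with LPS, against 142, 134 and 124 FPKM without, a log2 change of -1.49 ± 0.13. The LPS co-receptor Cd14 stood at 1570, 1627 and 1588 FPKM in the LPS libraries, against 251, 312 and 302 FPKM in the control libraries. Downstream, 15 of 40 adaptors and kinases rose and 3 fell, or 1 fell without LPS replicate 3, control replicate 1 or control replicate 3. The strongest of these rises were Traf1, an adaptor of TNF receptors (65.5 ± 5.78 FPKM with LPS and 1.18 ± 1.01 FPKM in control cells), Ripk2, the kinase of NOD receptors (108 ± 3.35 FPKM with LPS and 13.3 ± 0.611 FPKM in control cells), Map3k8, the kinase that links IkB kinase to ERK (30.6 ± 4.71 FPKM with LPS and 4.02 ± 1.57 FPKM in control cells), and Irak2 (91 ± 12.3 FPKM with LPS and 17.9 ± 3.47 FPKM in control cells). Ripk1, a kinase of TNF receptor signalling, fell (20.8 ± 1.63 FPKM with LPS and 34.2 ± 4.09 FPKM in control cells, log2 -0.68 ± 0.14).

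All 12 members of the NF-kB and IkB family rose, 11 of them at least 2-fold, with a median log2 change of 2.70 where that of all genes was 0.0022. Nfkbiz, a nuclear IkB protein that licenses secondary response genes (chr16:55811375-55838899, minus strand), had 73.2, 113 and 107 FPKM in the LPS libraries, against 0, 0.0910 and 0.191 FPKM in the control libraries, near 0 in every control library. Nfkbia, the classical inhibitor whose promoter is shown above, had 1172, 1093 and 1038 FPKM in the LPS libraries, against 73.3, 64 and 72.6 FPKM in the control libraries (log2 3.96 ± 0.09). Nfkbie (82.4 ± 2.92 FPKM with LPS and 4.02 ± 1.1 FPKM in control cells) and Nfkbid (20.1 ± 1.39 FPKM with LPS and 1.45 ± 0.757 FPKM in control cells) rose by 4.08 and 3.15. NF-kB letters were found in 6 of the 9 family promoters with a RefSeq window, or in 4 with the longer letters. Of all windows, 11.3% and 3.69% held them. Rel itself had 22 ± 4.05 FPKM with LPS and 1.72 ± 0.607 FPKM in control cells.

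Of 33 feedback inhibitors of cytokine and NF-kB signalling, 17 rose and 5 fell. Socs1, which blocks the kinases of interferon receptors, had 21.9, 41.7 and 30.4 FPKM in the LPS libraries, against 0.209, 1.28 and 0.214 FPKM in the control libraries (log2 4.39 ± 0.29). Tnfaip3, the ubiquitin-editing enzyme A20, had 133 ± 26.3 FPKM with LPS and 11.4 ± 3.22 FPKM in control cells. Gpr18, a G protein-coupled receptor in this list, had 14 ± 3.23 FPKM with LPS and 0.367 ± 0.476 FPKM in control cells. The family of RNA-destabilising proteins that bind AU-rich elements split, since Zfp36 rose (179 ± 31.5 FPKM with LPS and 32.3 ± 1.53 FPKM in control cells, log2 2.42 ± 0.13) while Zfp36l2 (1.63 ± 0.684 FPKM with LPS and 10.1 ± 1.67 FPKM in control cells, log2 -2.09 ± 0.24) and Zfp36l1 (1.5 ± 0.0427 FPKM with LPS and 3.67 ± 0.376 FPKM in control cells) fell. Zfp36l2 had 1.74, 0.904 and 2.26 FPKM with LPS, against 8.47, 11.8 and 9.88 FPKM without, with no overlap. The phosphatase gene Ptpn1 fell too (29.8 ± 0.213 FPKM with LPS and 49 ± 4.44 FPKM in control cells, log2 -0.70 ± 0.12).

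The MAP kinase phosphatases moved both ways, with 4 rises and 3 falls among 14. Dusp2, a nuclear phosphatase, had 29.7, 47.2 and 33.7 FPKM in the LPS libraries, against 1.81, 0.849 and 2.31 FPKM in the control libraries (log2 3.85 ± 0.25). Dusp1 had 91.7 ± 18.2 FPKM with LPS and 54.1 ± 7.99 FPKM in control cells and Dusp4 15.9 ± 1.56 FPKM with LPS and 8.64 ± 0.980 FPKM in control cells, both higher. The falls were in ERK phosphatases, the cytoplasmic Dusp7 (3.12, 1.64 and 1.31 FPKM with LPS, against 18.7, 19.4 and 10.6 FPKM without) and Dusp6 (3.9 ± 1.51 FPKM with LPS and 35 ± 4.56 FPKM in control cells) and the nuclear Dusp5 (1.05, 0.339 and 0.251 FPKM with LPS, against 2.35, 1.89 and 1.37 FPKM without). Dusp5 did not pass without LPS replicate 2 or 3 or control replicate 1 or 2. Among 18 growth factor and ERK feedback genes, 6 rose and 7 fell. Spry2, an inhibitor of receptor tyrosine kinase signalling, had 0.159, 0.342 and 0.0634 FPKM with LPS, against 3.05, 3.88 and 1.16 FPKM without, and Etv5, an ERK-responsive ETS factor, had 17.5 ± 2.19 FPKM with LPS and 48.8 ± 0.171 FPKM in control cells. Ier3, a stress-induced survival gene, rose (50.5 ± 4.48 FPKM with LPS and 6.91 ± 1.09 FPKM in control cells, log2 2.71 ± 0.15). Errfi1, an inhibitor of the EGF receptor, rose by 1.08. Egr1, an immediate early gene, had 7.48 ± 1.56 FPKM with LPS and 7.02 ± 1.16 FPKM in control cells and did not pass.

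Of 25 cytokine ligand genes tested, 16 rose and 2 fell, and of 20 chemokine genes 15 rose and 0 fell in limma's test (0 lower also at an unadjusted p under 0.05). Il27, a subunit of interleukin 27, had 60.2, 80.8 and 71.9 FPKM in the LPS libraries, against 0, 0 and 0.433 FPKM in the control libraries (log2 5.99 ± 0.26). Cxcl2, a neutrophil attractant, had 211, 187 and 232 FPKM in the LPS libraries, against 0.725, 0.796 and 0.371 FPKM in the control libraries (log2 7.02 ± 0.18). Ccl5, which attracts T cells and monocytes, had 145 ± 108 FPKM with LPS and 2.52 ± 1.81 FPKM in control cells, and Tnfsf9, the ligand of the costimulatory receptor CD137, had 89.2 ± 13.8 FPKM with LPS and 10.3 ± 1.33 FPKM in control cells. The gene of the anti-inflammatory cytokine Il10 had 0.815, 0.877 and 1.84 FPKM in the LPS libraries, against 0, 0 and 0 FPKM in the control libraries, under the filter, so it was not tested. The falls were Il16 (1.05 ± 0.254 FPKM with LPS and 3.41 ± 1.00 FPKM in control cells) and Tnfsf12, the ligand TWEAK (9.39 ± 0.662 FPKM with LPS and 15.3 ± 1.65 FPKM in control cells). For Tnfsf12, 50.7% of exon bases are shared with a readthrough gene, and for Il16 22.5% lie opposite Stard5, so both values are uncertain.

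Among 73 other secreted factors, matrix genes and proteases, 22 rose and 4 fell. Adamts4, an aggrecan-cleaving protease, had 26.6, 30.2 and 39.6 FPKM in the LPS libraries, against 0, 0 and 0.848 FPKM in the control libraries (log2 4.73 ± 0.29). Edn1, the vasoconstrictor endothelin precursor, had 10.2, 17.7 and 11.7 FPKM in the LPS libraries, against 0, 0 and 0 FPKM in the control libraries. Sdc4, a heparan sulfate proteoglycan, had 539 ± 24.7 FPKM with LPS and 43.1 ± 5.56 FPKM in control cells. The count of falls was 2 without LPS replicate 1 or control replicate 2, and 1 without LPS replicate 3 or control replicate 3. Thbd, the anticoagulant receptor thrombomodulin, had the largest log2 fall of the list (-1.09), but at low levels. It had 0.171, 0.0612 and 0.0679 FPKM with LPS, against 1.73, 1.05 and 1.27 FPKM without. Other falls of the list were larger in FPKM.

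Cytokine and growth factor receptors gave 14 rises and 10 falls among 55 tested members, or 6 falls without control replicate 1. The list also holds the ligand gene Il16 named above. Cd40, the costimulatory receptor, had 129, 136 and 200 FPKM in the LPS libraries, against 4.72, 7.75 and 7.49 FPKM in the control libraries. Tnfrsf1b, the TNF receptor largely restricted to leukocytes and endothelium, had 710, 842 and 890 FPKM in the LPS libraries, against 98.3, 93.6 and 89 FPKM in the control libraries. Both groups were far apart, with log2 changes of 4.35 ± 0.20 and 3.10 ± 0.10. Il15ra, which presents interleukin 15 to lymphocytes, had 10.4 ± 4.26 FPKM with LPS and 0.850 ± 0.788 FPKM in control cells. The shared receptor chain of the interleukin 6 family, Il6st, fell (4.15, 4.96 and 7.26 FPKM with LPS, against 13.7, 12.1 and 10.4 FPKM without, log2 -1.04 ± 0.21). Csf1r, the receptor of M-CSF, had 475, 614 and 520 FPKM in the LPS libraries, against 506, 490 and 509 FPKM in the control libraries, and the groups overlapped (0.09 ± 0.10, adjusted p = 0.628).

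Chemoattractant and metabolite receptors of the G protein-coupled class split almost evenly, with 16 rises and 14 falls among 57, of which 14 and 11 were at least 2-fold. Gpr84, a receptor for medium-chain fatty acids, had 578, 603 and 535 FPKM in the LPS libraries, against 15.6, 20.0 and 17.2 FPKM in the control libraries, so the lowest LPS library lay above every control library by a wide margin (log2 4.95 ± 0.10). Ccrl2, a non-signalling receptor that presents chemerin, had 254 ± 33.4 FPKM with LPS and 11.7 ± 1.37 FPKM in control cells. Fpr1, the receptor of bacterial formyl peptides, had 32.6, 28.1 and 28 FPKM in the LPS libraries, against 0.855, 0 and 0 FPKM in the control libraries. Neutrophils also express Fpr1, and the neutrophil marker list was higher with LPS as given above; its part in this value was not tested. Hcar2, the receptor of hydroxybutyrate and nicotinic acid, had 35.7 ± 7.18 FPKM with LPS and 0.802 ± 0.114 FPKM in control cells. On the falling side stood receptors of lipids. The sphingosine phosphate receptor gene S1pr1 had 12.2, 7.16 and 8.91 FPKM in the LPS libraries, against 31.6, 31.7 and 38.2 FPKM in the control libraries (log2 -1.76 ± 0.16). Lpar6 had 1.63, 3.09 and 1.05 FPKM with LPS, against 16, 17.8 and 16.5 FPKM without. Cnr2 had 0.952 ± 0.522 FPKM with LPS and 10.5 ± 0.137 FPKM in control cells. None of these overlapped between groups. C5ar1, the receptor of complement C5a, had 740 ± 70.2 FPKM with LPS and 581 ± 37.3 FPKM in control cells; its groups did not overlap, but it did not pass (log2 0.34 ± 0.15, adjusted p = 0.125). Ccr2 (1.95 ± 0.793 FPKM with LPS and 3.75 ± 2.00 FPKM in control cells) and Cx3cr1 (9.82 ± 2.66 FPKM with LPS and 12.7 ± 4.09 FPKM in control cells), chemokine receptors of monocyte subsets, did not pass and overlapped.

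Regulators of G protein signalling shut off signalling from such receptors. Of 14 tested, 1 rose and 4 fell, or 2 fell without LPS replicate 3, control replicate 1 or control replicate 2. Rgs2 had 9.8, 10.4 and 9.96 FPKM with LPS, against 32.5, 45.3 and 41.1 FPKM without (log2 -1.86 ± 0.18), and Rgs16 was the rise, with 3.52, 3.13 and 2.46 FPKM in the LPS libraries, against 0.350, 0.329 and 0.102 FPKM in the control libraries.

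**Figure D2:**
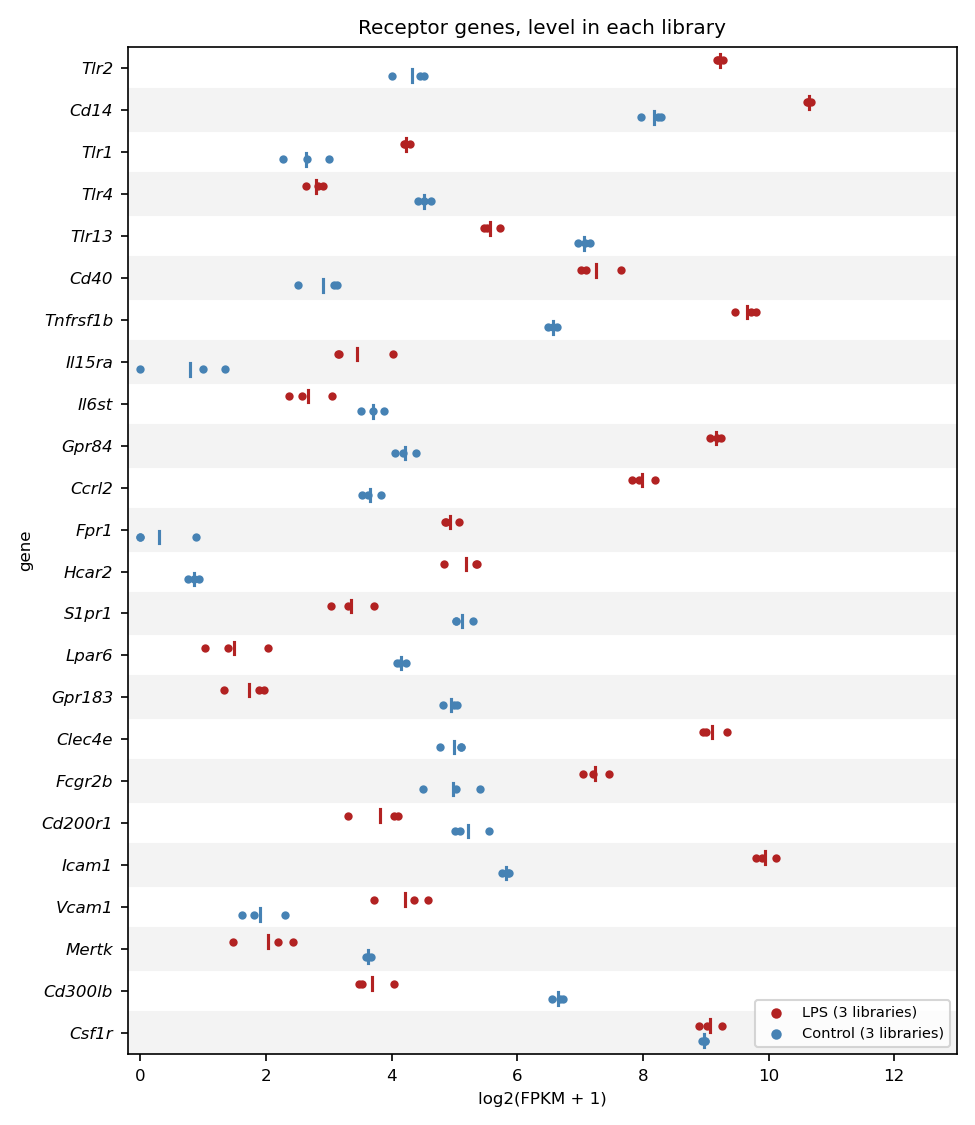
Level in each library, as log2(FPKM + 1), of 24 receptor genes, with LPS libraries (red, upper points of a row) and control libraries (blue, lower points), and a bar at each mean. Tlr2, Cd40, Gpr84 and Fpr1 lie far to the right with LPS, Gpr183, Lpar6 and Cd300lb far to the left, and Csf1r overlaps.

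Pattern receptors and phagocytic receptors followed. Among 36 Fc receptors and C-type lectins, 10 rose and 1 fell. Clec4e, the glycolipid receptor Mincle, had 514, 497 and 647 FPKM in the LPS libraries, against 26.4, 33.4 and 33.4 FPKM in the control libraries (log2 4.11 ± 0.13). Fcgr2b, the inhibitory Fc receptor, had 151 ± 22.9 FPKM with LPS and 31.5 ± 9.88 FPKM in control cells, Slamf7 had 68.8 ± 12.7 FPKM with LPS and 14 ± 0.889 FPKM in control cells, and Clec5a rose by 1.13. The fall was Cd200r1, an inhibitory receptor for the CD200 protein of neighbouring cells, with 15.4, 16.1 and 8.91 FPKM in the LPS libraries, against 31.2, 46.1 and 33 FPKM in the control libraries. Of 36 scavenger, efferocytosis and complement receptors, 4 rose and 4 fell, shares close to those of all genes. Marco, a scavenger receptor that binds bacteria, had 13.5 ± 0.452 FPKM with LPS and 3.66 ± 3.89 FPKM in control cells, and Olr1, the receptor of oxidised lipoprotein, had 4.27, 4.86 and 6.85 FPKM in the LPS libraries, against 0, 0 and 0 FPKM in the control libraries. Mertk, the receptor kinase for apoptotic cells, had 3.58, 4.4 and 1.78 FPKM in the LPS libraries, against 11.4, 11.7 and 11 FPKM in the control libraries. Mrc1, the mannose receptor, had 20.7 ± 3.73 FPKM with LPS and 19.8 ± 4.4 FPKM in control cells and did not pass. Among 28 integrins and adhesion molecules, 10 rose and 1 fell. The fall, of the integrin beta subunit gene Itgb5 (48.2, 44.2 and 53.3 FPKM with LPS, against 168, 126 and 97.1 FPKM without), did not pass without control replicate 1. Icam1 had 956, 892 and 1115 FPKM in the LPS libraries, against 53.2, 56.9 and 57.2 FPKM in the control libraries, Vcam1 had 18.2 ± 5.45 FPKM with LPS and 2.83 ± 0.972 FPKM in control cells, Itga5, a fibronectin receptor subunit, had 324 ± 53.2 FPKM with LPS and 73.8 ± 7.61 FPKM in control cells, and the vitronectin receptor subunit Itgav rose by 1.24.

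Interferon regulatory factors and STAT factors gave 8 rises and 4 falls among 17. Irf1, a factor induced by both NF-kB and interferons, had 279, 370 and 298 FPKM in the LPS libraries, against 21.8, 16.3 and 23.2 FPKM in the control libraries (log2 3.89 ± 0.14). Stat5a, which acts downstream of growth factor and cytokine receptors, had 29.7 ± 6.29 FPKM with LPS and 5.16 ± 0.541 FPKM in control cells. Irf7 (22.3 ± 7.4 FPKM with LPS and 6.78 ± 2.19 FPKM in control cells) and Irf9 (47.4 ± 1.78 FPKM with LPS and 16 ± 1.3 FPKM in control cells), factors of the interferon response, rose by 1.58 and 1.51. Irf8, a lineage factor of monocytes and dendritic cells, had 25, 33.7 and 30.4 FPKM in the LPS libraries, against 60.6, 63.3 and 57.5 FPKM in the control libraries. This was a fall, with a log2 change of -1.01 ± 0.12. The IRF2-binding corepressor genes Irf2bpl (2.49 ± 0.931 FPKM with LPS and 13.2 ± 1.02 FPKM in control cells) and Irf2bp2 (3.08 ± 1.38 FPKM with LPS and 7.64 ± 1.36 FPKM in control cells) fell, with log2 changes of -2.05 ± 0.24 and -1.12 ± 0.24.

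Among 38 AP-1, ATF and CEBP factors, 11 rose and 6 fell, and related factors moved apart. Jdp2, an AP-1 repressor, had 57.3, 54.5 and 62.9 FPKM in the LPS libraries, against 6.43, 2.64 and 3.93 FPKM in the control libraries (log2 3.53 ± 0.30). Batf had 40.4 ± 4.24 FPKM with LPS and 7.63 ± 3.37 FPKM in control cells. Jun had 20.2, 16.9 and 22.8 FPKM in the LPS libraries, against 72, 68.9 and 63.3 FPKM in the control libraries, and Fos had 16.1, 18.3 and 14.4 FPKM in the LPS libraries, against 43.3, 31.9 and 50.3 FPKM in the control libraries, so these founding members of AP-1 were both lower with LPS at 3 h. Within the CEBP family Cebpd rose (25.4 ± 2.52 FPKM with LPS and 3.65 ± 0.213 FPKM in control cells, log2 2.50 ± 0.18), and Cebpa, which drives myeloid commitment, fell (1.19, 1.64 and 0.883 FPKM in the LPS libraries, against 7.44, 7.53 and 8.73 FPKM in the control libraries, log2 -2.00 ± 0.20). Of the exon bases of Cebpd, 15% lie opposite Spidr. Maf, a large Maf factor, had 4.04, 4.75 and 3.89 FPKM with LPS, against 11.8, 13.8 and 11.2 FPKM without.

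Macrophage lineage and helix-loop-helix factors gave 17 rises and 22 falls among 79, which is 27.8% lower where 7.86% of all genes were. Hhex, a haematopoietic homeobox factor, had 3.06, 4.46 and 2.36 FPKM in the LPS libraries, against 22.2, 19.5 and 16.7 FPKM in the control libraries (log2 -2.28 ± 0.21). Id1, an inhibitor of helix-loop-helix factors, had 9.97, 11.6 and 9.63 FPKM in the LPS libraries, against 48.9, 38.9 and 58.8 FPKM in the control libraries (log2 -2.11 ± 0.22). Myc had 18.1, 9.02 and 11.6 FPKM in the LPS libraries, against 31.6, 38.5 and 37.6 FPKM in the control libraries. In the other direction Spi1, the gene of the master regulator PU.1, had 455, 447 and 479 FPKM in the LPS libraries, against 216, 222 and 222 FPKM in the control libraries, and replicates in each group lay close together (log2 1.06 ± 0.08, adjusted p = 2.82e-08). Tfec, a macrophage-restricted relative of MITF, had 61.3, 57.4 and 76.5 FPKM in the LPS libraries, against 6.48, 6.29 and 8.5 FPKM in the control libraries. Prdm1, the repressor Blimp-1, had 16.6 ± 2.51 FPKM with LPS and 1.66 ± 0.224 FPKM in control cells, Hivep3 had 7.42 ± 1.04 FPKM with LPS and 0.469 ± 0.306 FPKM in control cells and Plagl2 had 17 ± 3.03 FPKM with LPS and 2.65 ± 1.27 FPKM in control cells.

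EGR, KLF and nuclear receptor factors gave 8 rises and 8 falls among 41, or 5 falls without control replicate 1. Klf2, a quiescence factor of macrophages, had 1.36, 1.67 and 1.26 FPKM in the LPS libraries, against 5.08, 6.65 and 4.25 FPKM in the control libraries. Klf11 had 1.21 ± 0.256 FPKM with LPS and 3.92 ± 0.345 FPKM in control cells, and Pparg, the lipid-sensing receptor of alternatively activated macrophages, had 9.53, 10.6 and 15.4 FPKM in the LPS libraries, against 29, 32.6 and 32.5 FPKM in the control libraries (log2 -1.36 ± 0.20). Klf7 rose (12.8 ± 1.83 FPKM with LPS and 2.91 ± 2.02 FPKM in control cells), and so did Sp140, a chromatin reader (15 ± 1.26 FPKM with LPS and 4.85 ± 0.992 FPKM in control cells), and the coactivator gene Ncoa5 (17.7 ± 2.38 FPKM with LPS and 6.08 ± 0.819 FPKM in control cells). Of 68 chromatin regulators, 10 rose and 7 fell (14.7% and 10.3%, near the 10.5% and 7.86% of all genes), or 4 fell without LPS replicate 3 or control replicate 1. Tet2, a DNA demethylating enzyme, had 3.07, 2.7 and 2.89 FPKM with LPS, against 0.368, 0.190 and 0.498 FPKM without. Bcor, a corepressor (8.71 ± 1.19 FPKM with LPS and 2.36 ± 0.599 FPKM in control cells), Arid5a, which stabilises cytokine transcripts (6.9 ± 4.78 FPKM with LPS and 1.54 ± 0.116 FPKM in control cells), and Rnf2, a Polycomb ubiquitin ligase (27.9 ± 0.986 FPKM with LPS and 11.6 ± 1.35 FPKM in control cells), also rose. The maintenance methyltransferase Dnmt1 (24.4 ± 3.4 FPKM with LPS and 46.2 ± 1.97 FPKM in control cells) and the deacetylase Hdac5 (10.1 ± 2.35 FPKM with LPS and 18.6 ± 2.71 FPKM in control cells) fell.

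**Figure D3:**
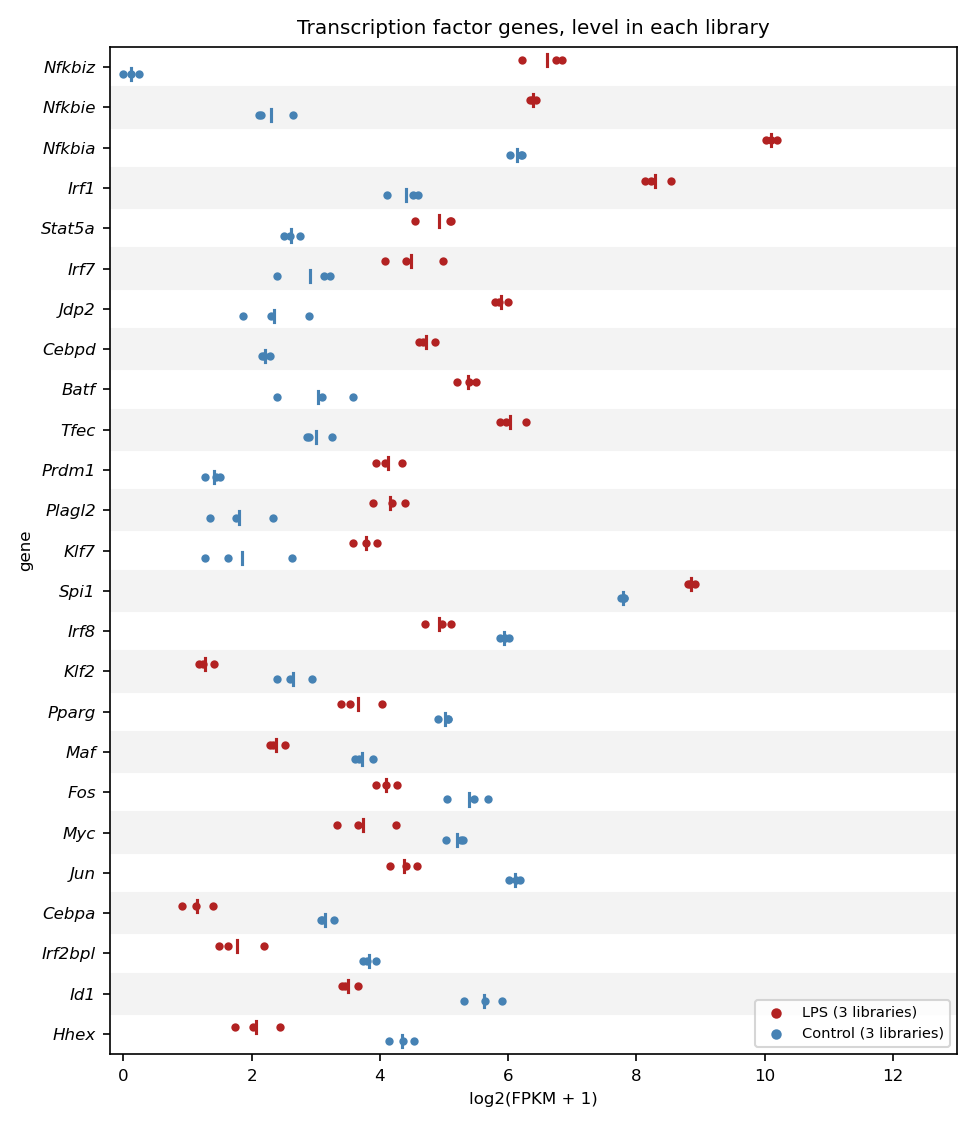
Level in each library, as log2(FPKM + 1), of 25 transcription factor and IkB genes, with LPS libraries (red, upper points of a row), control libraries (blue, lower points) and a bar at each mean. Spi1 and Tfec lie to the right with LPS, and Hhex, Id1 and Cebpa to the left.

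Of 63 antiviral interferon-stimulated genes tested, 36 rose and 0 fell in limma's test, with a median log2 change of 1.02. At an unadjusted p under 0.05, 46 were higher and 1 lower, and 1 fell without LPS replicate 2. Ifit2, which inhibits translation of viral RNA, had 79.1, 299 and 144 FPKM in the LPS libraries, against 0.938, 1.28 and 3.72 FPKM in the control libraries (log2 5.78 ± 0.38). Oasl1, a translational inhibitor of Irf7, had 39.6, 106 and 64 FPKM in the LPS libraries, against 0, 0.104 and 0.340 FPKM in the control libraries (log2 5.85 ± 0.27). Ifit1, whose promoter is shown above, had 331 ± 156 FPKM with LPS and 1.18 ± 1.03 FPKM in control cells. The interferon-stimulated letters were in 23 of the 51 promoters of this list with a window, or in 21 with the longer form. Of all windows, 7.47% and 3.26% held them. Of 11 interferon-inducible GTPases, which attack vacuoles that hold pathogens, 10 rose. Irgm1 had 160, 293 and 181 FPKM with LPS, against 22.7, 26.7 and 22.5 FPKM without. Irgm2 had 55 ± 20.8 FPKM with LPS and 3.43 ± 0.834 FPKM in control cells, Ifi47 43.5 ± 14.7 FPKM with LPS and 3.48 ± 3.02 FPKM in control cells, and Gbp5 11.2, 6.03 and 15 FPKM in the LPS libraries, against 0, 0 and 0 FPKM in the control libraries. Gm12250 (39.4 ± 15.2 FPKM with LPS and 0.813 ± 0.232 FPKM in control cells) is a pseudogene in GENCODE. These families hold near-identical copies between which reads may be split, so single members are uncertain. The interferon-stimulated letters were in 9 of the 10 GTPase promoters with a window in either form.

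Antigen presentation and costimulation gave 10 rises and 0 falls among 44 in limma's test, or 18 higher and 1 lower at an unadjusted p under 0.05. The rises that were largest were costimulatory or activation genes, Cd69 and Cd40 as above, Tnfsf9, and Cd83, a marker of mature antigen-presenting cells (284, 255 and 313 FPKM in the LPS libraries, against 33.1, 44 and 33.7 FPKM in the control libraries). Of 53 inflammasome, caspase and death receptor genes, 16 rose and 5 fell. Birc3, an inhibitor of apoptosis, had 65.9, 70.3 and 74.3 FPKM in the LPS libraries, against 5.63, 7.45 and 6.81 FPKM in the control libraries (log2 3.23 ± 0.13). Bcl2a1a, a survival gene with near-identical neighbours that make its value uncertain, had 8.02 ± 1.58 FPKM with LPS and 0.0598 ± 0.104 FPKM in control cells. Casp2, an apoptotic caspase, fell (3.17 ± 0.481 FPKM with LPS and 8.12 ± 1.64 FPKM in control cells), and so did Panx1, a membrane channel (25.8 ± 0.863 FPKM with LPS and 42.3 ± 5.91 FPKM in control cells). Tests of TRIM ubiquitin ligases found 9 rises and 9 falls among 29. Trim21, a cytosolic antibody receptor, had 47.4 ± 13.5 FPKM with LPS and 8.01 ± 0.904 FPKM in control cells, Trim36 13.8 ± 1.18 FPKM with LPS and 2.21 ± 0.495 FPKM in control cells and Trim13 32.2 ± 6.00 FPKM with LPS and 6.31 ± 1.24 FPKM in control cells, all higher. Trim47 (17.7 ± 1.41 FPKM with LPS and 45 ± 2.24 FPKM in control cells) and Trim59 (8.3 ± 0.518 FPKM with LPS and 17.5 ± 2.12 FPKM in control cells) were lower.

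Of 45 glycolysis and HIF-1 target genes, 7 rose and 2 fell (15.6% and 4.44%, against 10.5% and 7.86% of all genes), or 0 fell without LPS replicate 1 or control replicate 3 and 1 without LPS replicate 2, LPS replicate 3 or control replicate 1. With quantile normalization 6 fell. The rises were led by sugar transporters and the regulator itself. Slc2a6, a lysosomal hexose transporter, had 160, 137 and 178 FPKM in the LPS libraries, against 34.9, 23.3 and 24.3 FPKM in the control libraries (log2 2.50 ± 0.17). Slc2a1, the glucose transporter GLUT1, had 81.6, 82.5 and 77.4 FPKM in the LPS libraries, against 31.5, 25.7 and 32.2 FPKM in the control libraries (log2 1.41 ± 0.14), and Hif1a had 59.3, 70.0 and 72.6 FPKM in the LPS libraries, against 32.6, 24.5 and 26.5 FPKM in the control libraries (log2 1.25 ± 0.15). Pfkfb3, an activator of glycolysis, had 4.1 ± 0.357 FPKM with LPS and 5.44 ± 1.04 FPKM in control cells and did not pass. Of 51 genes of the tricarboxylic acid cycle, itaconate and respiration, 4 rose and 2 fell, shares below those of all genes, and 1 fell without any one of LPS replicates 1, 2 or 3 or control replicates 1 or 2. Sod2, the mitochondrial superoxide dismutase, had 71, 62.3 and 102 FPKM in the LPS libraries, against 21.5, 26 and 25.3 FPKM in the control libraries, and Slc25a10, the dicarboxylate carrier, had 29.7 ± 4.27 FPKM with LPS and 19.7 ± 2.06 FPKM in control cells.

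Among 25 genes of arginine, tryptophan, polyamine and nitric oxide metabolism, 7 rose (28%, against 10.5% of all genes) and 0 fell in limma's test, or 11 higher and 0 lower at an unadjusted p under 0.05. Il4i1, a secreted amino acid oxidase, had 46.9, 45.9 and 70.7 FPKM in the LPS libraries, against 0.220, 0 and 0.0480 FPKM in the control libraries. Of its exon bases 87.4% lie opposite Tbc1d17, which had 18.3 FPKM with LPS and 20.1 FPKM without. Slc7a2, the arginine transporter that feeds nitric oxide synthesis, had 4.78, 4.85 and 9.09 FPKM in the LPS libraries, against 1.37, 0.320 and 0.609 FPKM in the control libraries (log2 2.03 ± 0.29), and Hdc, which makes histamine, had 0.774, 2.35 and 2.12 FPKM in the LPS libraries, against 0, 0 and 0 FPKM in the control libraries. Arg1, which competes for arginine in alternatively activated macrophages, was listed at 0 in all 6 libraries. Of 51 pentose phosphate, serine and nucleotide synthesis genes, 4 rose and 4 fell (7.84% each way, against 10.5% and 7.86% of all genes). Of these genes 1 fell without LPS replicate 3 and 2 without control replicate 2 or 3. Cmpk2, a mitochondrial nucleotide kinase next to Rsad2, had 54.9, 163 and 114 FPKM in the LPS libraries, against 1.89, 1.41 and 4.27 FPKM in the control libraries (log2 4.94 ± 0.33). Upp1, which breaks down uridine, rose (3.47, 1.33 and 6.23 FPKM with LPS, against 0.296, 0 and 0.517 FPKM without). Umps, which makes uridine monophosphate, fell (17.4, 16.7 and 15.6 FPKM with LPS, against 33.1, 34.9 and 35.6 FPKM without).

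The lipid lists had shares near or under those of all genes. Of 42 cholesterol and fatty acid synthesis genes 3 rose and 3 fell (7.14% each way), with 5 falls under quantile normalization. Acsl1, an acyl-CoA synthetase, had 26.8, 28.9 and 34.6 FPKM in the LPS libraries, against 14.4, 12.3 and 10.8 FPKM in the control libraries (log2 1.20 ± 0.14). Scd2 (4.04 ± 1.15 FPKM with LPS and 9.74 ± 2.25 FPKM in control cells), Msmo1 (74.6 ± 13.6 FPKM with LPS and 113 ± 6.33 FPKM in control cells) and Fads1 (29.6 ± 0.845 FPKM with LPS and 42.4 ± 3.66 FPKM in control cells), desaturase and sterol oxidase genes, fell. Of 46 genes of cholesterol efflux, lipoprotein and fatty acid handling 6 rose and 3 fell (13% and 6.52%, against 10.5% and 7.86% of all genes). Nr1h3, the oxysterol receptor LXR alpha, had 41.8 ± 2.39 FPKM with LPS and 20.5 ± 0.615 FPKM in control cells, Abca1, the cholesterol exporter, had 12.1 ± 2.46 FPKM with LPS and 6.57 ± 1.01 FPKM in control cells, and Fabp4, a fatty acid binding protein, had 252, 231 and 228 FPKM in the LPS libraries, against 103, 145 and 108 FPKM in the control libraries. Abcd2, a peroxisomal transporter, fell (0.977 ± 0.132 FPKM with LPS and 3.39 ± 0.939 FPKM in control cells). Of 19 prostaglandin and leukotriene genes 2 rose, Ptgs2 (120 ± 28 FPKM with LPS and 0.791 ± 0.641 FPKM in control cells) and Ptges, the inducible prostaglandin E synthase (17.8, 21.5 and 23 FPKM in the LPS libraries, against 0.340, 2.07 and 1.2 FPKM in the control libraries). Ptgs1, the constitutive cyclooxygenase, fell (1.18 ± 0.657 FPKM with LPS and 2.94 ± 0.992 FPKM in control cells), a call lost without LPS replicate 2 or 3 or control replicate 1 or 3.

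Iron, heme and antioxidant genes gave 11 rises and 4 falls among 47, or 2 falls without LPS replicate 2 or 3 or control replicate 1 or 3, and 7 falls with quantile normalization. Slc39a14, an importer of zinc and iron, rose (14.5, 21.8 and 26.1 FPKM in the LPS libraries, against 7.89, 4.92 and 6.00 FPKM in the control libraries), and Slc40a1, the iron exporter ferroportin, fell (26.4, 22.4 and 22.1 FPKM in the LPS libraries, against 66.8, 63.1 and 69.7 FPKM in the control libraries). Neither pair of groups overlapped, and the log2 changes were 1.57 ± 0.21 and -1.46 ± 0.13. Lcn2, which binds bacterial siderophores, had 32.4, 20.7 and 23.3 FPKM in the LPS libraries, against 3.44, 3.39 and 2.51 FPKM in the control libraries. Lcn2 is also a neutrophil granule gene, and the part of the higher neutrophil markers in it was not tested. Gclc, the first enzyme of glutathione synthesis, fell (12.7 ± 1.55 FPKM with LPS and 28 ± 3.26 FPKM in control cells). Among 71 lysosome and autophagy genes 6 rose and 5 fell, 8.45% and 7.04%, which is under the 10.5% and 7.86% of all genes. Of these genes 3 fell without LPS replicate 2 or control replicate 1, and 9 fell with quantile normalization. Sqstm1 had 3257, 3046 and 3794 FPKM in the LPS libraries, against 664, 650 and 668 FPKM in the control libraries. Mcoln2, an endolysosomal channel, rose (67.7 ± 8.39 FPKM with LPS and 22.8 ± 4.81 FPKM in control cells), Tfeb, a master regulator of lysosomal genes, fell (7.42 ± 1.05 FPKM with LPS and 13.5 ± 2.67 FPKM in control cells), and Depdc5, an inhibitor of mTORC1, fell (0.623 ± 0.353 FPKM with LPS and 3.26 ± 0.662 FPKM in control cells). Of 161 solute carrier genes 25 rose and 7 fell (15.5% and 4.35%, against 10.5% and 7.86% of all genes). Slco4a1, an organic anion transporter, had 13.1 ± 0.202 FPKM with LPS and 1.97 ± 0.405 FPKM in control cells, and Slc45a4 (1.43 ± 0.959 FPKM with LPS and 5.43 ± 0.791 FPKM in control cells) and Slc25a38, the mitochondrial glycine carrier (3.84 ± 1.36 FPKM with LPS and 8.76 ± 2.66 FPKM in control cells), were among the falls.

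By count, the list with the most falls was that of DNA replication and repair. Of 77 tested members 25 fell and 5 rose (32.5% lower, 6.49% higher), with a median log2 change of -0.40. Msh6, a mismatch repair gene, had 2.44, 3.15 and 2.59 FPKM in the LPS libraries, against 12.5, 18.2 and 20.4 FPKM in the control libraries (log2 -2.25 ± 0.22). Cdc6, which loads the replicative helicase and whose promoter is shown above, had 1.69, 1.96 and 2.32 FPKM in the LPS libraries, against 8.36, 8.4 and 11.5 FPKM in the control libraries (log2 -1.79 ± 0.26). Cdt1, its partner in licensing, had 15.5, 13.1 and 13.6 FPKM in the LPS libraries, against 43.3, 43.4 and 42.5 FPKM in the control libraries (log2 -1.55 ± 0.15). E2f7, an atypical E2F repressor, had 1.3 ± 0.502 FPKM with LPS and 4.75 ± 0.626 FPKM in control cells. E2F letters were in 19 of the 58 promoters of this list with a window (32.8%, against 3.36% of all windows). Among the members that passed in either direction the share was much the same, 9 of 26 (34.6%). In the mitosis list they were in 3 of 50 windows (6%), and in 0 of the 12 whose genes passed. Any part of these letters in the falls was not tested. The rises included inhibitors of the cycle, Cdkn1a, which encodes p21 (608, 628 and 710 FPKM in the LPS libraries, against 251, 217 and 231 FPKM in the control libraries), Cdkn2b, which encodes p15 (2.43, 1.08 and 3.91 FPKM with LPS, against 0.179, 0 and 0.183 FPKM without), and Trp53 (71.8 ± 3.68 FPKM with LPS and 46.1 ± 4.3 FPKM in control cells), but also the kinase gene Cdk6 (26.6 ± 2.81 FPKM with LPS and 15.2 ± 1.47 FPKM in control cells). Ccnd1 had 19.6, 37.8 and 12.7 FPKM in the LPS libraries, against 23.8, 30.1 and 28.1 FPKM in the control libraries, and the groups overlapped.

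Mitosis genes followed with 12 falls and 3 rises among 60. Ect2, which starts cytokinesis, had 4.00, 2.73 and 3.22 FPKM in the LPS libraries, against 12, 12.3 and 11.1 FPKM in the control libraries (log2 -1.58 ± 0.19). Cdc25b, an activating phosphatase (6.79 ± 1.4 FPKM with LPS and 17.5 ± 3.27 FPKM in control cells), Ccnf (13.4 ± 2.58 FPKM with LPS and 34.4 ± 4.64 FPKM in control cells) and Fbxo5, an inhibitor of the anaphase-promoting complex (4.2 ± 0.622 FPKM with LPS and 11.1 ± 2.81 FPKM in control cells), fell as well. The rises were Plk2 (143 ± 11.7 FPKM with LPS and 53.7 ± 5.29 FPKM in control cells), a stress-induced kinase, Hmgb2 (47.5 ± 3.22 FPKM with LPS and 23.8 ± 0.832 FPKM in control cells) and Cks2 (62.8 ± 1.21 FPKM with LPS and 34.9 ± 8.04 FPKM in control cells). Of 20 histone genes 2 fell and 0 rose in limma's test, which is 10% lower where 7.86% of all genes were. At an unadjusted p under 0.05, 3 were lower and 0 higher, and 1 rose without control replicate 2. Histone genes have near-identical copies and largely lack poly(A) tails.

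**Figure D4:**
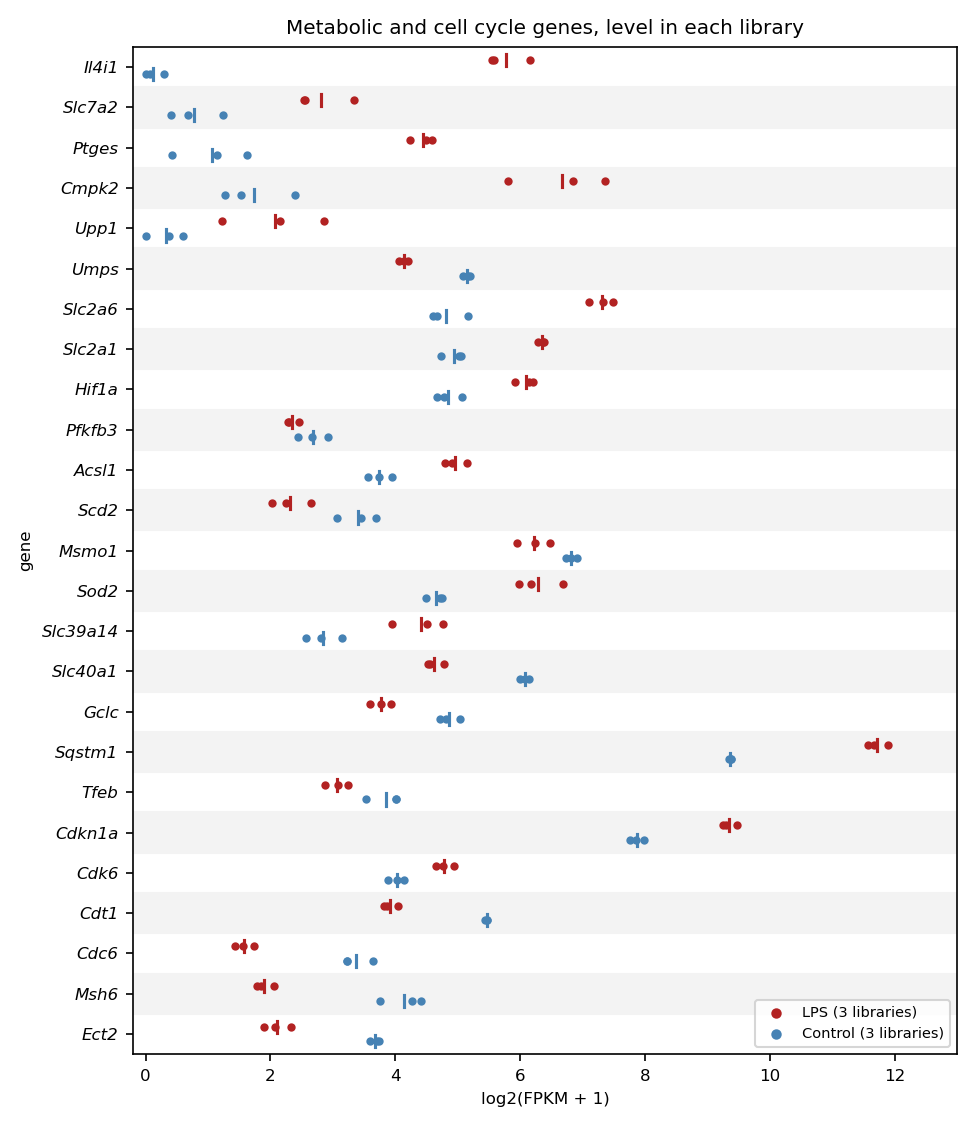
Level in each library, as log2(FPKM + 1), of 25 metabolic, iron, lysosomal and cell cycle genes, with LPS libraries (red, upper points of a row), control libraries (blue, lower points) and a bar at each mean. Cmpk2, Il4i1 and Slc2a6 lie to the right with LPS, Slc40a1, Cdc6 and Msh6 to the left, and Pfkfb3 overlaps.

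Small GTPases and their regulators, which steer the cytoskeleton and vesicle traffic, gave 24 rises and 11 falls among 69 members, of which 15 and 10 were at least 2-fold. Cdc42ep2, an effector of CDC42, had 111, 106 and 87.2 FPKM in the LPS libraries, against 0.165, 3.58 and 0.254 FPKM in the control libraries (log2 5.76 ± 0.38). Arl5c (46.9 ± 10.9 FPKM with LPS and 1.99 ± 0.570 FPKM in control cells), Rab11fip1, a Rab11 effector of recycling endosomes (22.4 ± 4.34 FPKM with LPS and 0.654 ± 0.174 FPKM in control cells), and Rhof (40.8 ± 1.6 FPKM with LPS and 2.41 ± 0.203 FPKM in control cells) rose too, although 11.2% of the exon bases of Rhof lie opposite Tmem120b. Rab7b, a late endosomal GTPase that in mouse macrophages promotes breakdown of TLR4, had 26.5, 30.6 and 21 FPKM in the LPS libraries, against 133, 157 and 141 FPKM in the control libraries (log2 -2.43 ± 0.20). Rab3il1, an exchange factor for Rab proteins, had 18.4, 17.3 and 15.7 FPKM in the LPS libraries, against 113, 103 and 111 FPKM in the control libraries (log2 -2.61 ± 0.14). Arhgap25, a brake on RAC (6.62 ± 0.760 FPKM with LPS and 31.4 ± 4.6 FPKM in control cells), Rasgrp3, a Ras activator (1.92 ± 0.379 FPKM with LPS and 8.84 ± 0.899 FPKM in control cells), and Cyth4, an ARF exchange factor (40.8 ± 2.87 FPKM with LPS and 128 ± 8.07 FPKM in control cells), fell.

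Genes of PI3K, AKT, mTOR and phosphoinositide signalling gave 12 rises and 10 falls among 65. The regulatory subunits of PI3K gamma, Pik3r5 (154, 186 and 208 FPKM in the LPS libraries, against 47.9, 39 and 40.9 FPKM in the control libraries) and Pik3r6 (15.1 ± 1.77 FPKM with LPS and 4.88 ± 1.23 FPKM in control cells), both rose. Syk, the kinase downstream of Fc receptors and Mincle, had 122 ± 22.6 FPKM with LPS and 37.4 ± 5.6 FPKM in control cells, and Src had 3.27, 3.49 and 4.27 FPKM with LPS, against 0.0290, 0.0819 and 0.0594 FPKM without. The falls included Tec, a TEC-family kinase (7.21, 5.37 and 5.01 FPKM in the LPS libraries, against 30.8, 30.4 and 26.5 FPKM in the control libraries, log2 -2.15 ± 0.20), Dgkz, a diacylglycerol kinase (12.6 ± 0.988 FPKM with LPS and 48.3 ± 8.42 FPKM in control cells), and the adaptor genes Gab3 (2.36 ± 0.852 FPKM with LPS and 9.91 ± 2.48 FPKM in control cells) and Sh2d3c (4.51 ± 1.15 FPKM with LPS and 16 ± 1.6 FPKM in control cells).

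Several lists stayed near or under the shares of all genes. Of 55 homeostatic and resident macrophage genes tested, 4 fell and 0 rose in limma's test, or 6 lower and 3 higher at an unadjusted p under 0.05. Without control replicate 2, 1 rose, and with quantile normalization 8 fell. P2ry13, a nucleotide receptor, was one of the falls (1.16, 2.5 and 0.668 FPKM with LPS, against 3.94, 3.54 and 5.16 FPKM without). No member of 81 cytosolic ribosomal protein genes passed in limma's fit, where 1 was higher and 0 lower at an unadjusted p under 0.05, while 1 rose without LPS replicate 2 or control replicate 2 and 28 fell under quantile normalization. Of 36 respiratory complex I genes 0 passed, 0 also at an unadjusted p under 0.05, with 2 falls under quantile normalization. Of 12 snoRNA host genes 0 passed and 1 was higher at an unadjusted p under 0.05, while 1 rose without LPS replicate 2 and 1 fell without control replicate 1. Of 224 numbered zinc-finger genes 11 rose, or 7 without LPS replicate 2, and 12 fell, 4.91% and 5.36% against 10.5% and 7.86% of all genes. Of 15 clock genes 1 fell, Nfil3 (3.27 ± 0.652 FPKM with LPS and 6.49 ± 2.4 FPKM in control cells; named after its values were seen), and 0 rose, with 2 lower and 2 higher at an unadjusted p under 0.05; the fall was lost without LPS replicate 2, control replicate 2 or control replicate 3, and 1 rose without LPS replicate 2, control replicate 1 or control replicate 2.

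**Figure D5:**
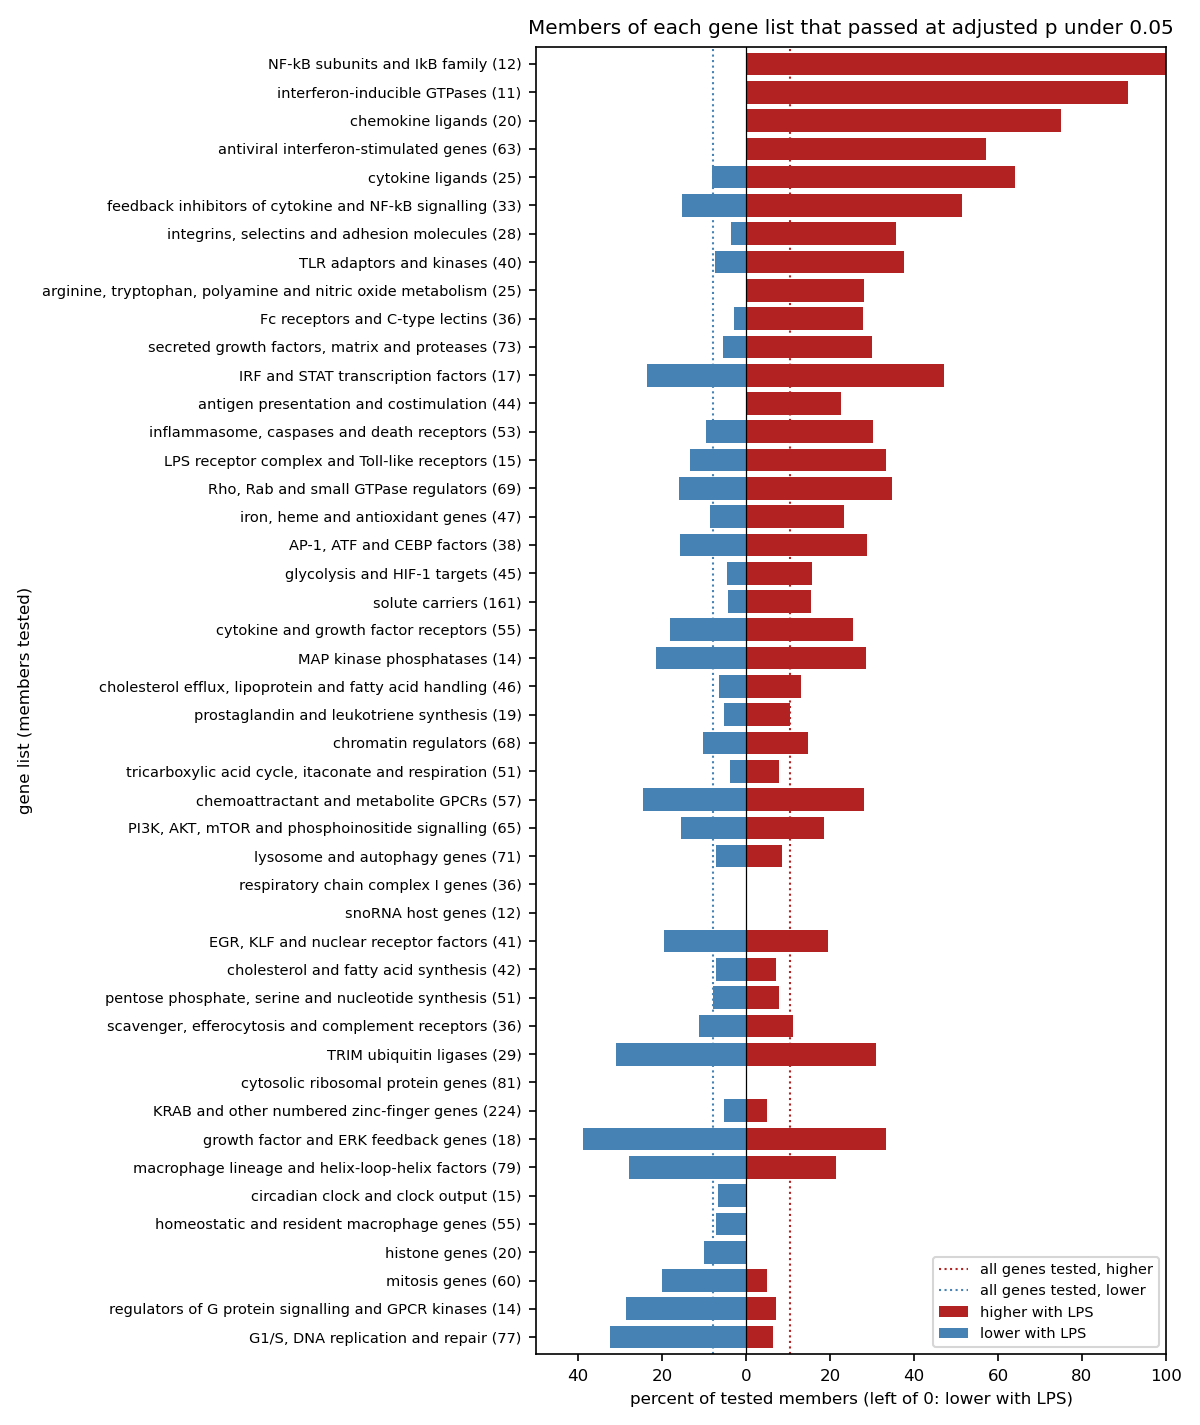
Share of the tested members of each of 46 gene lists that passed higher with LPS (red, right of 0) or lower (blue, left of 0), in percent, with the number tested in brackets. Dotted lines mark the shares of all genes tested, 10.5% higher and 7.86% lower. The NF-kB family (100%), interferon-inducible GTPases (90.9%), chemokines (75%), cytokines (64%) and antiviral interferon-stimulated genes (57.1%) reach farthest to the right, in that order. Growth factor and ERK feedback genes (38.9%), DNA replication (32.5%) and TRIM ligases (31%) reach farthest to the left. The first and last of these 3 also reach over 30% to the right.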

How the data were processed

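RNA sequencing libraries (total RNA; Nucleospin RNA Plus kit and Illumina protocols, per the labels' protocols) were analysed from the authors' deposited FPKM table, with 1 value per gene symbol and library in 12 columns. The submitters' processing notes name Cufflinks 2.2.1, SAMtools 0.1.19, Bowtie2 2.2.3 and TopHat2 2.0.13, with the genome build mm10; the annotation and the strand setting are not given in the sources used here. FPKM keep no read depth, which is unknown, so precision rests on the spread between replicates, and a change common to a whole group cannot be seen.

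The filter asked for 1 FPKM or more in 3 or more of the 12 libraries. On log2(FPKM + 1), limma 3.58.1 under R 4.3.3 (lmFit; eBayes with trend) gave each of the 4 groups a mean. The contrast was LPS minus control, with Benjamini-Hochberg adjusted p under 0.05 over all genes tested. The code was checked on simulated data. Replicate numbers are shared between groups, with no label on their meaning, so no block was used. An exact permutation test of 3 against 3 libraries cannot go below p = 0.1, so none was run.

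The members and the 46 lists were chosen with earlier results of these data known, and some genes sit in more than 1 list. Genes named were the 15 largest rises and falls with groups that do not overlap, up to 4 largest rises and falls that passed in each list (where under 3 passed, the 3 members with the highest FPKM), 34 fixed genes and the 10 largest FPKM changes each way. Markers are named as such; any other gene is said to be chosen after its values were seen. A few genes that this rule would name are not reported here. Exon overlaps and gene coordinates were taken from GENCODE M21 (GRCm38), matched by symbol for 10241 of 10311 genes, and promoters from RefSeq; the promoter letters were chosen after the data had been examined, and those for NF-kB and interferon-activated factors were shortened by 1 letter after a first search. Alternatives were quantile normalization or median-of-ratios scaling, a pseudocount of 0.1, a 5 FPKM filter or none, a replicate block, only the 6 libraries of the contrast, fits without trend and with a robust prior, and leaving out each library in turn. Python 3.11.15 with pandas 2.3.3, numpy 2.4.6 and matplotlib 3.10.9 was used.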

Additional observations from a re-analysis of the deposited data

Results flagged for a closer look

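The LPS effect was also fitted with tunicamycin present. Of the 34 fixed genes, 11 are given first for which the difference between both effects passed limma's interaction test (adjusted p under 0.05 over all genes). Of all genes tested, 3.37% passed it. Each value is the log2 LPS effect in tunicamycin-treated cells minus the effect in cells with no tunicamycin, ± SE, over 3 libraries per group. Among those of the 11 that fell with LPS alone, the difference was 3.90 ± 0.31 for Dusp6 (adjusted p = 1.10e-06), 2.31 ± 0.27 for Myc (adjusted p = 6.00e-05), 2.13 ± 0.24 for Jun (adjusted p = 5.03e-05) and 1.54 ± 0.33 for Fos (adjusted p = 0.0135). With tunicamycin the LPS effect itself was 0.99 for Dusp6, 0.85 for Myc, 0.40 for Jun and 0.24 for Fos. Among receptor genes the difference was 1.84 ± 0.21 for C5ar1 (adjusted p = 5.07e-05), 0.66 ± 0.13 for Cd14 (adjusted p = 0.00669) and -1.04 ± 0.17 for Tlr2 (adjusted p = 0.00115). The remaining differences of the 11 were -0.72 ± 0.11 for Spi1 (adjusted p = 0.00104), -2.17 ± 0.25 for Irg1, which makes itaconate (adjusted p = 5.37e-05), -1.27 ± 0.21 for Il1b (adjusted p = 0.00153) and 1.17 ± 0.31 for Il6 (adjusted p = 0.0496). Other fixed genes did not pass limma's interaction test. They include Tlr4 (0.65 ± 0.27, adjusted p = 0.249), Cebpa (0.34 ± 0.29, adjusted p = 0.642) and Mertk (0.96 ± 0.40, adjusted p = 0.258), which fell with LPS alone. Among the rises, Nfkbia (-0.02 ± 0.13, adjusted p = 0.959) and Tnfaip3 (0.33 ± 0.24, adjusted p = 0.582) did not pass either. The difference did not pass for Cd14 without trend, for Il1b with a pseudocount of 0.1 or for Fos with no filter. For Il6 it did not pass with no filter (adjusted p = 0.106), with the replicate block (0.0684) or without any 1 of the 6 LPS and control libraries (0.0607 to 0.133), and it was -0.38 with a pseudocount of 0.1.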

How the results depend on the processing

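Over 15 alternatives the number of genes that passed stayed between 1468 and 1924 (1894 as reported), with 867 to 1085 higher and 601 to 1001 lower, and 988 genes passed in all of them. Leaving out 1 library at a time gave 1468 to 1617 genes, and a filter at 5 FPKM 1600. Quantile normalization changed the split, with 48% of the genes that passed higher with LPS where 57.2% were in the reported fit. The FPKM of a library summed to 666197 to 685010 with LPS and 603467 to 638743 in the controls. The cause of the changed split, and any part of these sums in it, was not tested.

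Of 205 genes named in the text that passed, 201 did so in every alternative that could be fitted for them; the exceptions were Dusp5, Itgb5, Ptgs1 and Nfil3. C5ar1 passed when only the 6 libraries of the contrast were used, and Ccnd1 without LPS replicate 2 (adjusted p = 0.0493, range over its alternatives 0.0493 to 0.999). Among genes that did not pass, the log2 change turned round for Csf1r (-0.07 with quantile normalization, -0.01 to 0.17 without 1 library), Egr1 (-0.04 to 0.23 without 1 library), Mrc1 (-0.00 with quantile normalization, -0.05 to 0.23 without 1 library) and Ccnd1 (-0.75 to 0.00 without 1 library). The Il6 difference between both LPS effects turned to -0.38 with a pseudocount of 0.1, and did not pass with no filter, with the replicate block or without any 1 LPS or control library.

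The replicate number as a block gave 1858 genes, 1065 higher and 793 lower, of which 1799 were among the reported calls. Deviations of same-numbered LPS and control libraries correlated at r = -0.04, 0.04 and 0.02 for numbers 1, 2 and 3, so the numbers were not taken to pair the samples. Read depth is unknown, so no counting error could be given.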
